A study of Homo sapiens with 16 samples.

Results

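The combination of GSK126 and UNC0638 was compared between RPMI-8226 and MM.1S cells, with the DMSO arrays of each line as its control. The measure was the interaction, which is the change from DMSO to the combination in RPMI-8226 cells minus the same change in MM.1S cells, on the log2 scale. All probes that could be measured entered the comparison, and 8 of the 16 arrays of the study carry it. The groups were RPMI-8226 cells with DMSO, RPMI-8226 cells with GSK126 (1 µM) and UNC0638 (1 µM), and MM.1S cells with the same treatments, each for 6 days and each with 2 biological replicates. Both are established lines of human origin, grown from multiple myeloma, a cancer of plasma cells, and each stands for the tumour of 1 patient. They are unsorted cultures, and fewer cells with an RNA cannot be told apart from less of it per cell.

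EZH2 is the catalytic subunit of Polycomb repressive complex 2 and places trimethyl marks on lysine 27 of histone H3, which keep developmental and lineage genes silent. G9a, the product of EHMT2, places dimethyl marks on lysine 9 of the same histone, which mark another large part of the silent genome. GSK126 blocks EZH2 and UNC0638 blocks G9a, so both marks lose a main writer in cells given the combination. Silent genes can include those of other blood lineages, of the germ line and of the innate antiviral response. The arrays measure RNA, and which genes held these marks in the 2 lines was not tested.

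Cells given the combination responded differently in the 2 lines at 1850 of 26389 probes (7.01%, limma with Benjamini-Hochberg adjustment, adjusted p under 0.05). The interaction was above 0 for 849 of these probes and below 0 for 1001, and the 1850 probes carried 1670 gene symbols. At an unadjusted p under 0.05 there were 6701 probes. Called in RPMI-8226 cells only were 430 probes, 343 of them higher and 87 lower with the combination. In MM.1S cells only there were 658, with 512 higher and 146 lower. These are probes with a called interaction and a called change of at least 2-fold in 1 line, where the other line had no called change and a log2 change under 0.5 in size. MM.1S cells did not measure 230 of the 343 rises and 39 of the 87 falls called in RPMI-8226 cells only. RPMI-8226 cells did not measure 299 of the 512 rises and 26 of the 146 falls called in MM.1S cells only. For these probes the other line has no measured response to compare. The responding line itself did not measure 13 of the 343 rises and 7 of the 87 falls in RPMI-8226 cells only. For MM.1S cells only these were 11 of the 512 rises and 4 of the 146 falls. Such called changes rest on dim spots. In opposite directions 125 probes of 117 genes were called, 49 of them higher in RPMI-8226 and lower in MM.1S cells, and 76 the other way. Both lines measured 89 of these 125 probes, and in the others 1 line had no group with both of its arrays well above background. Of the remainder, 147 moved in the same direction to a different extent and 490 met none of these rules. The last probe inside the threshold, of EHHADH, had an interaction of -1.36 and an adjusted p of 0.04985, and the first one outside, of LOC643201, 2.05 and 0.05013.

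**Figure D1:**
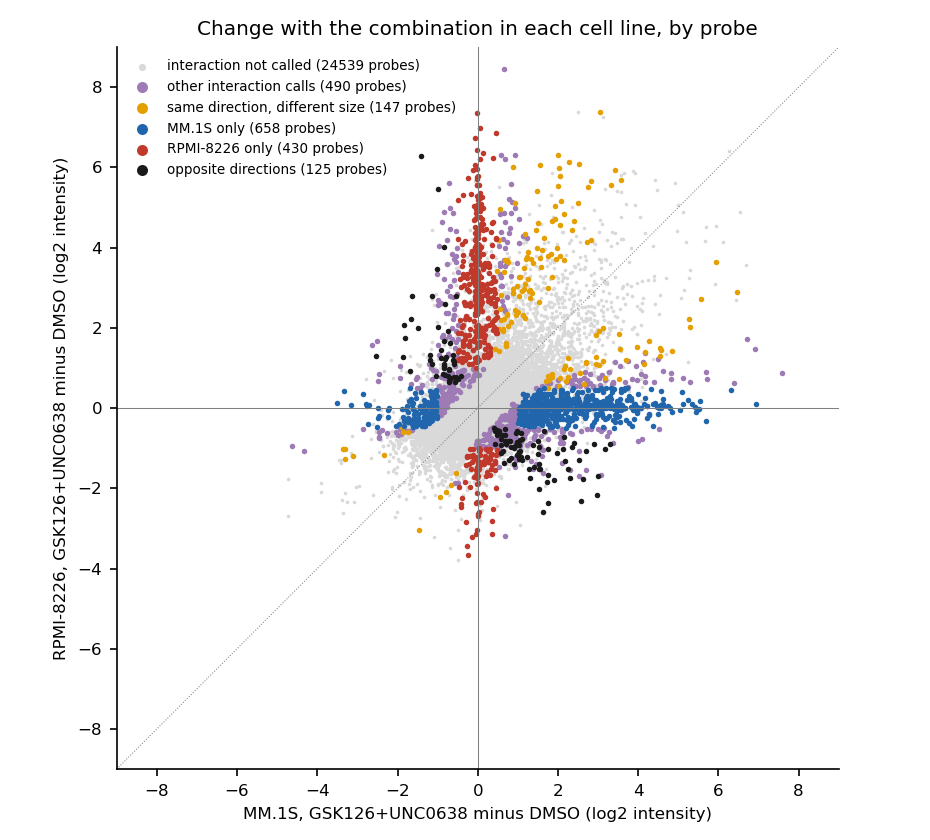
Change with GSK126+UNC0638 from DMSO in MM.1S cells (horizontal, log2 intensity) against the change in RPMI-8226 cells (vertical, log2 intensity), 1 point per probe kept, with the colour showing how the interaction was called and the dotted line marking equal changes. The 125 probes called in opposite directions lie in the upper left and lower right quadrants, the 430 called in RPMI-8226 cells only along the vertical axis, and the 658 called in MM.1S cells only along the horizontal axis.

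Levels are given throughout as log2 intensity relative to the 75th percentile of the array, so that a level of 0 stands for that percentile. On the 8 arrays between 47.1% and 52.1% of spots were well above background, and the lowest level of such a spot lay between -4.95 and -4.14. A group is said below to lie under background where neither of its arrays was well above it. Fold changes against it are then given as lower bounds, and the interaction itself rests on dim spots. The 2 arrays of a group differed with an SD of 0.396 and 0.366 for DMSO and the combination in RPMI-8226 cells, and of 0.246 and 0.258 in MM.1S cells. The fit uses 1 spread for both lines. With each array weighted by the spread of its line, an alternative chosen after seeing the data, 1669 interactions were called, and 81 in opposite directions in place of 125, of which 51 were among the 125. With the replicate number as a block within each line, 1232 of the 1850 interactions and 80 of the 125 opposite probes stayed called. Of 84 called interactions that were followed gene by gene 14 ended under this block, namely those of ZNF596, FGF9, SPANXB2, PGGHG, SIRT3, SPRR2E, CD3E, SCN4B, FXYD2, SLC6A9, SPANXA1, E2F2, HBB and KRT8. Each line lay on a slide of its own, so that differences in level between the lines cannot be told apart from the slide, whereas an offset of a whole slide leaves the interaction.

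The labelled cell type was checked against marker genes. Of 9 plasma cell markers 8 were well above background in every group, the exception being CD27. Their summed level, with each log2 level turned back to a linear value relative to the 75th percentile, was 255 to 295 with DMSO and 162 to 208 with the combination in RPMI-8226 cells, and 533 to 543 and 360 to 361 in MM.1S cells. Of markers of other cell types, MPO, ALAS2, CDH1 and KRT19 were under background in every group. KRT8 had an interaction of 1.13 ± 0.23 (SE, adjusted p = 0.0411), a call that ended without any of 7 arrays. The 5 epithelial markers summed to 80.2 to 95.9 with DMSO and 66.9 to 67.5 with the combination in RPMI-8226 cells, and to 1.08 to 1.21 and 0.958 to 1.01 in MM.1S cells. EPCAM, an epithelial adhesion protein, fell to under background in MM.1S cells, at least 4.37-fold (adjusted p = 0.0034), and had a log2 change of -1.29 in RPMI-8226 cells (adjusted p = 0.0883), with an interaction that was not called (2.11, adjusted p = 0.0896). The 4 erythroid markers summed to 7.92 to 9.21 with DMSO and 3.5 to 4.58 with the combination in RPMI-8226 cells, and to 13.9 to 14.6 and 21.9 to 22.4 in MM.1S cells. HBB, the beta chain of haemoglobin, went the other way in RPMI-8226 cells, from under background (-6.56 and -6.27) to -0.55 and -2.33, at least 7.19-fold (adjusted p = 0.00259), and read 3.39 and 3.33, and 4.3 and 4.27, in MM.1S cells. Its interaction of 4.05 (adjusted p = 0.0284), on 1 of its 2 probes, ended as a call without any of 6 arrays. HBA2, an alpha chain, had log2 levels of 2.96 and 3.17, and 1.43 and 2.09, in RPMI-8226 cells (adjusted p = 0.0958).

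Genes that moved in opposite directions are described first. Those higher in RPMI-8226 and lower in MM.1S cells with the largest smaller change were PLIN2, which coats lipid droplets, DHRS2, a short-chain dehydrogenase, SLC35F1, a member of a solute carrier family, SPACA3, a lysozyme-like protein of the sperm acrosome, and BEND6, a BEN domain protein. In the other direction they were CTTN, the actin-binding protein cortactin, ADAMTSL2, a glycoprotein of the extracellular matrix, and 3 variable gene segments of the immunoglobulin kappa chain.

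SPACA3 (probe at chr17:31323970-31324472, GRCh37) had log2 levels of -6.42 and -6.13 with DMSO and -3.92 and -3.03 with the combination in RPMI-8226 cells, and of -0.96 and -1.08 with DMSO and -2.69 and -2.64 with the combination in MM.1S cells. The treated arrays lay above both DMSO arrays in the first line and below both in the second. These genes were chosen through calls on the same arrays, so such separation adds no support, here or for the genes below. The change was at least 1.75-fold upwards in RPMI-8226 cells (adjusted p = 0.00248), where DMSO arrays lay under background, and 3.13-fold downwards in MM.1S cells (log2 change -1.65 ± 0.29 (SE), adjusted p = 0.0087). Its interaction was 4.44 ± 0.41 (SE, adjusted p = 0.00323).

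PLIN2 (chr9:19123403-19123462) had log2 levels of -4.61 and -6.13 with DMSO and -3.26 and -3.33 with the combination in RPMI-8226 cells. MM.1S cells had -2.43 and -2.96 with DMSO and -4.33 and -4.75 with the combination. The rise was at least 1.98-fold (adjusted p = 0.0376), the fall 3.6-fold (adjusted p = 0.0286), and the interaction 3.92 ± 0.68 (SE, adjusted p = 0.0249). A second probe was also called, with 2.64 for the interaction. SLC35F1 rose from -6.56 and -6.18 to -4.51 and -3.82 in RPMI-8226 cells, where 1 treated array was well above background and the bound was 1.09-fold. It fell from -1.46 and -1.59 to -3.16 and -3.21 in MM.1S cells, and its interaction was 3.87 ± 0.35 (SE, adjusted p = 0.00319).

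DHRS2 rose from log2 levels of -1.87 and -2.24 to 0.12 and -0.75 in RPMI-8226 cells and fell from -3.73 and -3.59 to -6.02 and -4.92 in MM.1S cells (interaction 3.56, adjusted p = 0.0233). BEND6 went from -5.2 and -6.13 to -3.1 and -4.22 in RPMI-8226 cells and from -2.63 and -2.73 to -4 and -4.36 in MM.1S cells (interaction 3.5, adjusted p = 0.027). In both genes the treated and DMSO arrays of a line did not overlap, which adds nothing to the calls that selected them. The calls of PLIN2, DHRS2 and BEND6 ended when any of 6, 4 and 5 of the 8 arrays was left out, with interactions between 3.16 and 4.67, 3.01 and 4.11, and 2.94 and 4.06. Those of SPACA3 and SLC35F1 held without each single array.

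CTTN (chr11:70282582-70282641) had log2 levels of 2.01 and 1.22 with DMSO and -0.55 and -0.85 with the combination in RPMI-8226 cells, and of -3.72 and -4.91, and -2.24 and -1.26, in MM.1S cells. It was 4.96-fold lower in the first line (adjusted p = 0.0326) and 5.92-fold higher in the second (adjusted p = 0.0124), with an interaction of -4.88 ± 0.72 (SE, adjusted p = 0.0146). Without replicate 2 of the combination in MM.1S cells, the adjusted p of CTTN was 0.0518. ADAMTSL2 (chr9:136440581-136440640) went from 1.44 and 0.5 to -1.04 and -1.35 in RPMI-8226 cells and from -1.62 and -0.94 to 1.45 and 1.92 in MM.1S cells. The fall was 4.48-fold (adjusted p = 0.016), the rise 7.81-fold (adjusted p = 0.00373) and the interaction -5.13 ± 0.53 (SE, adjusted p = 0.00481), with all 3 of its probes called in this direction.

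With the arrays weighted by the spread of their line, 7 of the 16 opposite-direction genes that lead this class or lie in the runs of neighbours described here kept both line changes, namely SLC35F1, SPACA3, SPRR2A, SPRR2F, ANO9 and the kappa segments 1-16 and 1-27. For the other 9 the interaction and the change in MM.1S cells stayed called, while the change in RPMI-8226 cells did not. The adjusted p of the latter was 0.0796 for PLIN2, 0.142 for DHRS2, 0.0581 for BEND6, 0.134 for CTTN and 0.0539 for ADAMTSL2. For IFITM1 and the kappa segments 1D-43, 1D-8 and 3-15, described below, it was 0.0837, 0.075, 0.0581 and 0.0722 (ENST00000468879, ENST00000471857 and ENST00000390252 in this order). Of the other opposite-direction genes named below from gene lists, NUPR1, IER3 and ZNF181 kept both changes, and ICAM1, ZNF331 and ZNF580 did not.

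**Figure D2:**
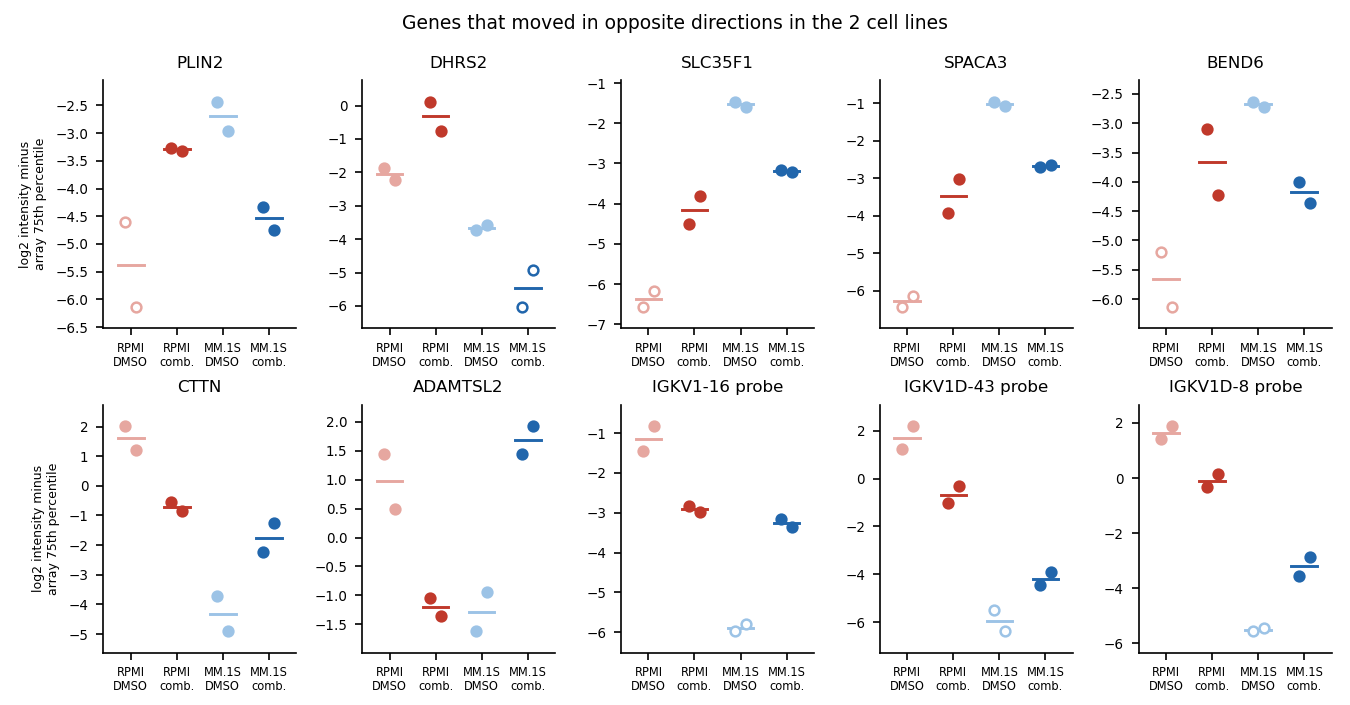
Log2 level relative to the 75th percentile of the array (vertical) of genes called in opposite directions, with 1 point per array. Groups are DMSO and GSK126+UNC0638 in RPMI-8226 and MM.1S cells. Bars are means of 2 arrays, and open circles mark groups with neither array well above background. SPACA3 rises from -6.42 and -6.13 to -3.92 and -3.03 in RPMI-8226 and falls from -0.96 and -1.08 to -2.69 and -2.64 in MM.1S cells, and ADAMTSL2 moves the other way in each line.

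The kappa light chain locus on chromosome 2 held several such genes. Antibodies pair a heavy chain with a kappa or lambda light chain, and the kappa variable segments encode the antigen-binding end of the former. Within 1250 kb (chr2:89277987-90531781, GRCh37), 13 genes were kept, 8 had a called interaction, each below 0, and 12 of 13 interactions were below 0. In RPMI-8226 cells 8 of the 13 fell and in MM.1S cells 6 rose. The genes called were 7 kappa segments and XLOC_l2_007424.

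The probe of segment 1-16 (ENST00000479981) had log2 levels of -1.45 and -0.83 with DMSO and -2.82 and -2.99 with the combination in RPMI-8226 cells. MM.1S cells had -5.98 and -5.79 with DMSO, under background, and -3.16 and -3.35 with the combination. The fall was 3.41-fold (adjusted p = 0.00531), the rise at least 2.89-fold (adjusted p = 0.00122) and the interaction -4.4 ± 0.32 (SE, adjusted p = 0.00146). Segment 1D-43 (ENST00000468879) went from 1.22 and 2.19 to -1.03 and -0.31 in RPMI-8226 cells and from -5.48 and -6.39 to -4.44 and -3.92 in MM.1S cells, with an interaction of -4.13 that was lost without any of 4 arrays. Segment 1D-8 (ENST00000471857) went from 1.41 and 1.88 to -0.33 and 0.15, and from -5.57 and -5.45 to -3.56 and -2.85, with an interaction of -4.04 ± 0.42 (SE, adjusted p = 0.00481).

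A second probe of segment 1D-8 gave a different pattern in MM.1S cells, with a log2 change of -0.33 there, -1.84 in RPMI-8226 cells and an interaction of -1.51 (adjusted p = 0.0408). Segments 3-15 (ENST00000390252) and 1-27 (ENST00000498435) were also called in opposite directions, with interactions of -4.69 and -3.41. Segment 3-7 (ENST00000390247) had an interaction of -4.77, with a rise in MM.1S cells (adjusted p = 0.00716) and a log2 change of -1.68 in RPMI-8226 cells that was not called (adjusted p = 0.072). Without replicate 2 of the combination in MM.1S cells, its interaction had an adjusted p of 0.0638. Segment 1D-33 (ENST00000390265) fell only in RPMI-8226 cells, from log2 levels of 0.32 and 1.21 to -1.4 and -1.05, while in MM.1S cells it read -2.45 and -2.42, and -1.97 and -1.98 (log2 change 0.46, 95% interval -0.25 to 1.16). Kappa segments are near copies of each other and the annotation of these probes lists between 1 and 4 transcripts each, so the values may be shared between segments, which was not tested.

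The IFITM genes on chromosome 11 formed another run. They encode interferon-induced membrane proteins that hinder the entry of enveloped viruses into cells. IFITM1 had log2 levels of 5.67 and 5.81 with DMSO and 4.46 and 4.99 with the combination in RPMI-8226 cells, and of -0.27 and -0.12, and 1.74 and 2.1, in MM.1S cells. It was 2.03-fold lower in the first line (adjusted p = 0.0309) and 4.34-fold higher in the second (adjusted p = 0.00212), with an interaction of -3.14 ± 0.31 (SE, adjusted p = 0.00404) and both of its probes called. IFITM3 went from 4.12 and 4.21 to 3.52 and 3.63 in RPMI-8226 cells (adjusted p = 0.0586) and from -0.85 and -0.97 to 0.99 and 1.38 in MM.1S cells, with an interaction of -2.69 ± 0.23 (SE, adjusted p = 0.00245). IFITM2 had log2 changes of 0.17 ± 0.29 (SE) and 2.95, and its interaction of -2.78 (adjusted p = 0.0154) had an adjusted p of 0.0591 without replicate 2 of the combination in MM.1S cells.

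Between chr11:216148 and chr11:554889 (339 kb), 16 genes were kept and 8 had a called interaction, all below 0. Besides the IFITM genes these were SIRT3, PGGHG, B4GALNT4, ANO9 and LRRC56. ANO9, of the anoctamin family of membrane proteins, moved in opposite directions (log2 changes -1.15 and 1.5, interaction -2.65, adjusted p = 0.00526). PGGHG, an enzyme that trims collagen sugars, rose in MM.1S cells by a log2 change of 1.7 and had -0.07 in RPMI-8226 cells. LRRC56 rose in both lines, by 0.56 and 2.02, and B4GALNT4 fell in RPMI-8226 cells only (-1.59 against -0.03). The calls of SIRT3 and PGGHG ended without any of 7 and 3 arrays. The IFITM genes are close paralogs, and how far their probes share signal was not tested. The 250 bases before the RefSeq start sites of IFITM1 and IFITM3 (GRCh38.p14) are shown because both genes had a called interaction and carry the letters GAAANNGAA, a core of the element bound by interferon-activated factors, in capitals. IFITM1 lies at chr11:313790-314039 on the plus strand and IFITM3 at chr11:320861-321110 on the minus strand.
IFITM1: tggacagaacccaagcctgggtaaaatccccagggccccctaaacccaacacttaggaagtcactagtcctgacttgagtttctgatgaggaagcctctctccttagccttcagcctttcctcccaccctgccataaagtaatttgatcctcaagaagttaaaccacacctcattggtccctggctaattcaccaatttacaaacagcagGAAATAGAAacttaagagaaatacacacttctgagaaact
IFITM3: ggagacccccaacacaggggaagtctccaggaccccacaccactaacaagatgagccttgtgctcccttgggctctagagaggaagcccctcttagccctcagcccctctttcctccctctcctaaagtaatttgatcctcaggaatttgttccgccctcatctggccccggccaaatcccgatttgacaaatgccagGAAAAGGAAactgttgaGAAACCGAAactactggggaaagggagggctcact
IFITM1 has 1 match in these 250 bases, which starts 40 bases before the start site, and IFITM3 has 2, at 52 and 35 bases before it. Of all 27305 promoters, each with 250 bases before and 50 after the start, 8.29% hold these letters on either strand.

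Opposite changes of the reverse kind were called for 2 of the 4 genes kept in the SPRR2 cluster of chromosome 1. These genes encode small proline-rich proteins of the cornified envelope of skin. All 4, within 84.1 kb (chr1:153028599-153112700, GRCh37), had a called interaction above 0. SPRR2A had log2 levels of -6.67 and -6.4 with DMSO and -0.66 and -1.51 with the combination in RPMI-8226 cells, and of 0.33 and 0.22, and -0.63 and -0.81, in MM.1S cells. It rose at least 9.21-fold in the first line (adjusted p = 0.000228) and fell 2-fold in MM.1S cells (adjusted p = 0.0368), and its interaction was 6.46 ± 0.4 (SE, adjusted p = 0.00097). SPRR2F rose from -2.83 and -3.09 to -1.11 and -1.58 and fell from -0.22 and -0.24 to -0.78 and -1.03, with an interaction of 2.29 ± 0.28 (SE, adjusted p = 0.00828). SPRR2C and SPRR2E rose in RPMI-8226 cells and had log2 changes of -0.57 (adjusted p = 0.0606) and -0.58 (adjusted p = 0.322) in MM.1S cells. The interaction of SPRR2E ended as a call without any of 6 arrays.

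The start regions of SPACA3, SPRR2A and SPRR2F, 3 genes that rose in RPMI-8226 and fell in MM.1S cells, are shown with the letters TGANTCA, the site of AP-1 dimers of JUN and FOS proteins, in capitals (RefSeq, GRCh38.p14). They lie at chr17:32992601-32992850 on the plus strand, and at chr1:153057513-153057762 and chr1:153113517-153113766 on the minus strand.
SPACA3: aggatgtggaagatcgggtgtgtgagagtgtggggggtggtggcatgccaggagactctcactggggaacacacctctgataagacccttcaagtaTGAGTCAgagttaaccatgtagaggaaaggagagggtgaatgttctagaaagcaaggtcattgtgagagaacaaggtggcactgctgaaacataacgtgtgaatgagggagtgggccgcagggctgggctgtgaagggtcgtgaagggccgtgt
SPRR2A: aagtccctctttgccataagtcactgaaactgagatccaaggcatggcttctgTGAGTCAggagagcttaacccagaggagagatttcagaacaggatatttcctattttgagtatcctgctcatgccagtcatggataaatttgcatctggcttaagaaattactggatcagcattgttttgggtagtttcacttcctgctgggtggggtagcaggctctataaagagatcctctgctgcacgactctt
SPRR2F: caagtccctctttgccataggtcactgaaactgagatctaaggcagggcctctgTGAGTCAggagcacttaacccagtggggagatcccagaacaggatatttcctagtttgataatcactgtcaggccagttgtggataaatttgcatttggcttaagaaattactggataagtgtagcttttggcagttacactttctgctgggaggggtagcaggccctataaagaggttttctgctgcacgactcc
At a shift of 1 base, 213 of 249 bases of the SPRR2A and SPRR2F stretches are identical (85.5%), so these genes are close copies, and how far their probes share signal was not tested. Of 117 opposite-direction genes 61 had a promoter in the table. TGANTCA stood in 6 of the 30 that were higher in RPMI-8226 cells (KIR2DL4, PAEP, RUNX2, SPACA3, SPRR2A and SPRR2F), in 0 of the 31 that were lower, in 7.76% of all promoters and in 5.05% of those of the 11673 genes kept and matched. GAAANNGAA stood in 4 and 2 of them (8.29% of all and 6.7% of those kept), CACGTG, the E-box, in 3 and 2 (7.43% and 9.85%), CCAAT in 8 and 9 (35.7% and 36.7%), TATAAA in 4 and 4 (12% and 6.91%) and TGATGNAA, a core of the ATF4 element, in none (3.67% and 1.89%). Both strands were searched, and these are descriptions of letters.

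Genes that responded in RPMI-8226 cells only were led by PLOD2, SLN, CCL3 and CD3D among those that MM.1S cells also measured. PLOD2 hydroxylates lysines of collagen, and SLN is sarcolipin, a small inhibitor of the calcium pump of muscle. CCL3 is a chemokine that draws in monocytes and T cells, and CD3D is a chain of the T cell receptor complex. PLOD2 (chr3:145787452-145787511) went from log2 levels of -6.32 and -6.1 to 0.01 and 0.3 in RPMI-8226 cells and from 1.06 and 1.07 to 1.21 and 1.18 in MM.1S cells. It rose at least 21.7-fold in the first line (adjusted p = 4.71e-05), whereas the log2 change in the second was 0.13 (95% interval -0.23 to 0.5), and the interaction was 6.23 ± 0.21 (SE, adjusted p = 0.000284). SLN rose from -5.15 and -6.18 to 0.66 and -0.12, at least 23.5-fold, and read -2.78 and -3.52, and -3.13 and -3.43, in MM.1S cells (log2 change -0.13, 95% interval -1.2 to 0.93). Neither gene had overlapping DMSO and treated arrays in RPMI-8226 cells.

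CCL3 had log2 levels of -2.64 and -1.84 with DMSO and 3.55 and 2.32 with the combination in RPMI-8226 cells, and of 8.34 and 8.31, and 7.56 and 8.09, in MM.1S cells. The rise was 36.1-fold (adjusted p = 0.00134), the log2 change in MM.1S cells -0.5 (95% interval -1.59 to 0.59) and the interaction 5.67 ± 0.64 (SE, adjusted p = 0.00603). CD3D went from -2.59 and -2.7 to 2.42 and 2.27 in RPMI-8226 cells, 31.8-fold (adjusted p = 0.000273), and read -3.22 and -4.01, and -3.29 and -3.68, in MM.1S cells (log2 change 0.13, 95% interval -0.53 to 0.8). In RPMI-8226 cells the treated and DMSO arrays of both genes were far apart, and in MM.1S cells they overlapped for CD3D and did not for CCL3. AGR2, an endoplasmic reticulum protein of secretory epithelia, and CXorf51A rose most among genes that MM.1S cells did not measure, at least 85.8-fold and 31.4-fold (adjusted p = 0.000228 and 0.000296).

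**Figure D3:**
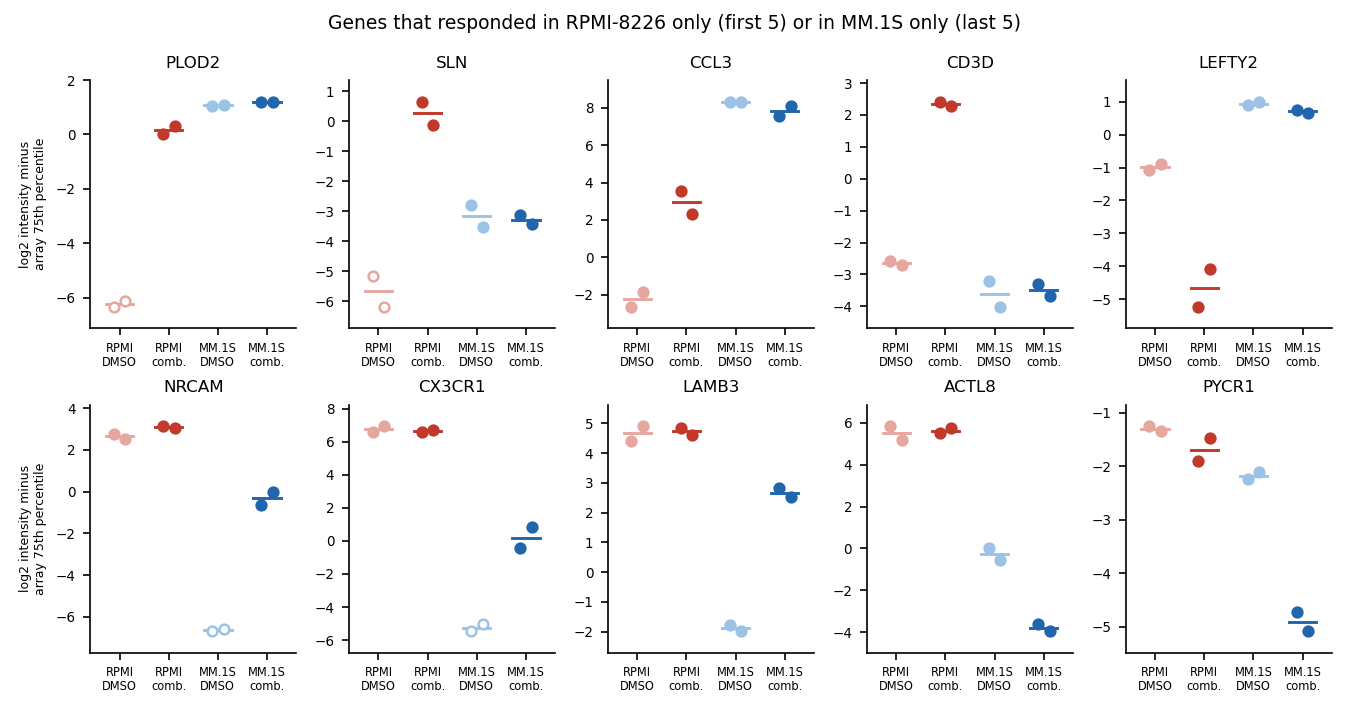
Log2 level relative to the 75th percentile of the array (vertical) of genes called in 1 line only, with 1 point per array. Groups are DMSO and GSK126+UNC0638 in RPMI-8226 and MM.1S cells. Bars are means of 2 arrays, and open circles mark groups with neither array well above background. PLOD2 reaches 0.01 and 0.3 in treated RPMI-8226 cells and lies between 1.06 and 1.21 on all MM.1S arrays, and CX3CR1 lies between 6.58 and 6.93 on all RPMI-8226 arrays and rises in MM.1S cells.

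Falls in RPMI-8226 cells only were led, among probes that MM.1S cells also measured, by LEFTY2, an antagonist of NODAL signalling. It went from log2 levels of -1.06 and -0.89 to -5.23 and -4.07 in RPMI-8226 cells and from 0.89 and 1.01 to 0.76 and 0.67 in MM.1S cells, a 12.8-fold fall (adjusted p = 0.00188) against a log2 change of -0.24 (95% interval -1.08 to 0.61). The kappa segment 1D-33, described above, came next by size, then C4orf50 and ZNF596, a zinc finger gene, with interactions of -2.4 and -2.27. ZNF606-AS1, an antisense RNA gene under background in MM.1S cells, fell at least 1.51-fold (interaction -2.61, adjusted p = 0.00131), a call that was lost with the normexp background correction. The calls ended without any of 4 arrays for LEFTY2 (interaction -4.02 to -2.86), 5 for segment 1D-33 (-2.89 to -2), 6 for C4orf50 (-2.8 to -2) and 7 for ZNF596 (-2.63 to -1.91), which was also lost with arrays weighted by line.

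Genes that rose in MM.1S cells only were led, among probes that RPMI-8226 cells also measured, by NRCAM, a neuronal cell adhesion molecule, CX3CR1, the receptor of the chemokine fractalkine, LAMB3, a chain of the basement membrane protein laminin, and FCGBP, a mucus protein. CX3CR1 (chr3:39305034-39305093) had log2 levels of 6.6 and 6.93 with DMSO and 6.58 and 6.71 with the combination in RPMI-8226 cells, and went from -5.47 and -5.02 to -0.43 and 0.82 in MM.1S cells. The rise was at least 31.5-fold (adjusted p = 0.000837), the log2 change in RPMI-8226 cells -0.11 (95% interval -1.08 to 0.86) and the interaction -5.55 ± 0.57 (SE, adjusted p = 0.00461). LAMB3 read 4.42 and 4.9, and 4.85 and 4.62, in RPMI-8226 cells and rose from -1.77 and -1.99 to 2.84 and 2.51 in MM.1S cells, 23.5-fold (adjusted p = 0.00031), against a log2 change of 0.07 in RPMI-8226 cells (95% interval -0.45 to 0.6). Its interaction was -4.48 ± 0.31 (SE, adjusted p = 0.00131).

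NRCAM read 2.76 and 2.54, and 3.13 and 3.07, in RPMI-8226 cells and rose from -6.7 and -6.58 to -0.63 and -0.02 in MM.1S cells, at least 22-fold, with an interaction of -5.87 ± 0.31 (SE, adjusted p = 0.000599) that 1 of its 2 probes carried. FCGBP rose at least 12.9-fold in MM.1S cells and had a log2 change of 0.22 (95% interval -0.64 to 1.09) in RPMI-8226 cells. In each of these 4 genes the DMSO level of RPMI-8226 cells lay above the treated level of MM.1S cells. The calls of all 4 held without each single array. CXCL13, which guides B cells to lymphoid follicles, was under background in RPMI-8226 cells and rose from -6.43 and -6.8 to 0.17 and 0.47 in MM.1S cells, at least 34.4-fold (adjusted p = 0.000132). Its interaction of -6.83 was larger in size than those of the 4, as was that of the transcript ENST00000414198 (-6.02), which RPMI-8226 cells did not measure either and which rose at least 18.6-fold.

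Falls in MM.1S cells only included ACTL8, an actin-like protein of the testis, FGF9, a growth factor, CDC23, a subunit of the anaphase-promoting complex, and PYCR1, which makes proline. ACTL8 read 5.83 and 5.16, and 5.49 and 5.76, in RPMI-8226 cells and fell from 0.01 and -0.57 to -3.62 and -3.96 in MM.1S cells, 11.4-fold (adjusted p = 0.00123), with an interaction of 3.64 ± 0.42 (SE, adjusted p = 0.00682). PYCR1 read -1.25 and -1.34, and -1.9 and -1.47, in RPMI-8226 cells (log2 change -0.39, 95% interval -0.87 to 0.09) and fell from -2.24 and -2.11 to -4.72 and -5.09 in MM.1S cells, 6.65-fold (adjusted p = 0.000811), with both probes called. CDC23 fell at least 5.03-fold in MM.1S cells on 1 of its 2 probes, and the other probe had an interaction of 0.13. FGF9 rested on a probe that fell under background, with an interaction of 2.89 (adjusted p = 0.0418) that was lost without any of 6 arrays or with arrays weighted by line, while its second probe had -0.74.

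Rises in 1 line only often began under background. Of the 343 probes higher in RPMI-8226 cells only, 239 lay under background in DMSO, and of these 184 lay under it in MM.1S cells with both treatments, while 49 were well above it there with both. Of the 512 higher in MM.1S cells only, 231 began under background, with 182 and 46 in RPMI-8226 cells in the same order. Where both lines measured the probe, the DMSO level was higher in the line that did not respond for 83 of 100 probes (83%) with a rise in RPMI-8226 cells and for 178 of 202 (88.1%) with a rise in MM.1S cells. Over all 20929 probes measured in both lines, MM.1S cells had the higher DMSO level for 48.9%. For falls in RPMI-8226 cells only the line that did not respond had the higher DMSO level for 17 of 41 probes (41.5%), and for falls in MM.1S cells only for 64 of 116 (55.2%). Among the rises it lay even above the treated level of the responding line for 52 and 123 of those probes. The filter sets part of these shares. A rise from under background counts as measured in both lines only where the other line was well above background in a group. The share over all probes is therefore not a like comparison for the rises. The DMSO arrays enter both the level and the change, and the slide cannot be told apart from the line, so these are descriptions with no test.

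Among genes called in the same direction in both lines but to a different extent, the larger rise was in RPMI-8226 cells for SUCNR1, the succinate receptor, SPANXB2, a sperm protein, and IL2RG, the shared chain of several interleukin receptors. SUCNR1 and SPANXB2 lay under background on all 4 MM.1S arrays (-6.75 to -5.79 and -6.74 to -5.01), so that the called changes there rest on spots that were not measured, and the call of SPANXB2 ended without either of 2 arrays. RSAD2, the antiviral protein viperin, XLOC_l2_009614 and BCL6, the repressor that directs germinal centre B cells, rose more in MM.1S cells. RSAD2 was well above background on only 1 of the 4 RPMI-8226 arrays compared, a treated one, and its call ended without replicate 2 of the combination in MM.1S cells (adjusted p = 0.0502). IL2RG rose from -6.06 and -5.81 to -0.88 and -1.05 in RPMI-8226 cells, at least 9.98-fold, and from 1.45 and 1.45 to 2.1 and 1.91 in MM.1S cells, 1.47-fold (interaction 4.41 ± 0.21 (SE), adjusted p = 0.000533). BCL6 rose from -2.71 and -2.49 to -0.63 and -0.55 in RPMI-8226 cells, 4.04-fold, and from -5.41 and -4.59 to 0.12 and 0.46 in MM.1S cells, at least 32.1-fold (interaction -3.27 ± 0.4 (SE), adjusted p = 0.0077). Of the 147 probes of this kind 134 rose and 13 fell, and the change was larger in RPMI-8226 cells for 96 and in MM.1S cells for 51.

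Chemokine genes of chromosome 17 and the CD3 genes of chromosome 11 lay next to each other as well. Between chr17:34398680 and chr17:34523260 (125 kb), 4 of 5 genes kept were called, each above 0. These were CCL18, CCL3, CCL4 and CCL3L3, and the call of CCL18 ended without any of 5 arrays. CCL4, like CCL3 a chemokine that attracts immune cells, rose from log2 levels of -5.74 and -6.15 to -0.56 and -2.05 in RPMI-8226 cells, at least 7.91-fold, and read 4.84 and 5.95, and 4.7 and 4.3, in MM.1S cells. Its interaction of 5.53 (adjusted p = 0.0131) had an adjusted p of 0.0582 without replicate 2 of the combination in MM.1S cells. CCL3L3 is a near copy of CCL3, so that their probes may share signal.

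Within 533 kb (chr11:117690944-118223990) all 9 genes kept had an interaction above 0, and it was called for FXYD2, IL10RA, SCN4B, CD3E, CD3D and CD3G. The calls of FXYD2, IL10RA, SCN4B and CD3E ended without any of 4, 5, 6 and 5 arrays, and those of CD3D and CD3G held without each single array. CD3G rose from log2 levels of -2.51 and -3.44 to 2.95 and 2.68 in RPMI-8226 cells, 55.2-fold (adjusted p = 0.00045), and from -6.67 and -6.65 to -4.99 and -4.22 in MM.1S cells, at least 1.13-fold (interaction 3.73 ± 0.51 (SE), adjusted p = 0.0116). CD3E rose in both lines, at least 6.3-fold and at least 4.66-fold (interaction 2.28, adjusted p = 0.0252). The summed level of 4 T cell markers (CD2, CD3D, CD3E and CD3G) was 0.407 to 0.477 with DMSO and 12.3 to 14 with the combination in RPMI-8226 cells, and 0.231 to 0.263 and 0.74 to 0.816 in MM.1S cells. CD3E was under background in DMSO in both lines and CD3G in DMSO in MM.1S cells. The myeloid markers summed to 6.52 to 9.7 and 18.2 to 20.8 in RPMI-8226 cells and to 2.35 to 2.82 and 7.5 to 8.45 in MM.1S cells, with MPO under background in every group, and CD14 rose in RPMI-8226 cells only (6.34-fold, interaction 2.7, adjusted p = 0.00474). The part of other cells in these results was not tested.

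**Figure D4:**
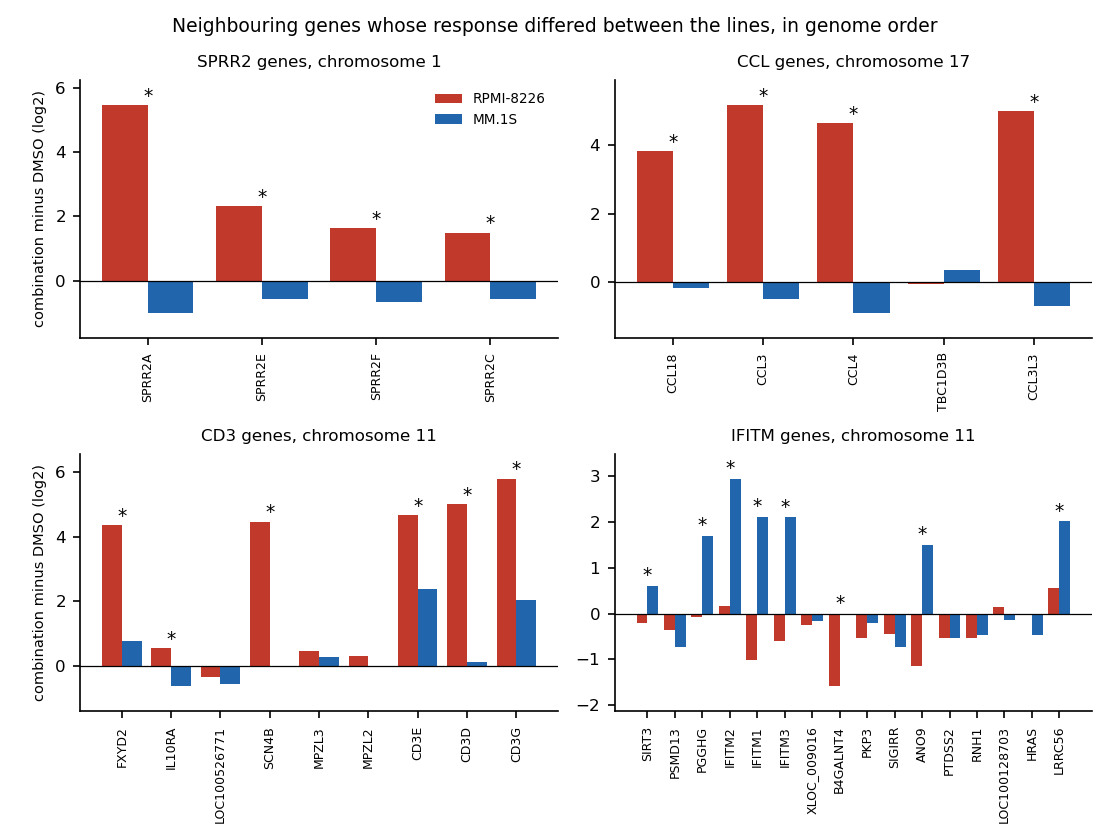
Log2 change with GSK126+UNC0638 (vertical) of the genes kept at loci where called genes lie next to each other, in the order of their probes (horizontal), with RPMI-8226 and MM.1S cells in different colours; a star marks a called interaction. Bars are differences between the means of 2 arrays per group. The 4 SPRR2 genes, 4 of 5 CCL genes and 6 of 9 genes around CD3 are called higher in RPMI-8226 cells, and 8 of 16 genes around IFITM1 are called lower.

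In all, 17 runs of at least 4 genes with a called interaction in the same direction and no more than 500 kb between neighbours were found, 5 of them with interactions above 0 and 12 below 0. Each run, those above included, begins and ends at a called gene, which raises its share of called genes. Over all genes kept the share was 3.51% above 0 and 4.06% below 0. Sparser runs included 7 of 56 genes kept on chromosome 9 and 6 of 35 on chromosome 8. A run on chromosome 1 held the SLAM receptors SLAMF1 and SLAMF7, with ITLN1, ARHGAP30 and NECTIN4, where 5 of 12 genes kept were called. The call of SLAMF1 ended without any of 5 arrays. SLAMF7, a surface protein of plasma cells that antibody drugs target, rose from log2 levels of -3.1 and -2.02 to 2.82 and 1.84 in RPMI-8226 cells, 29.8-fold (adjusted p = 0.00131), and went from 6.19 and 6.21 to 5.34 and 5.38 in MM.1S cells (adjusted p = 0.175). Another on chromosome 6 held SERPINB9, an inhibitor of granzyme B, with 5 of 6 genes called, where 5 rose in MM.1S cells and 0 were called in RPMI-8226 cells. The call of SERPINB9 itself (-2.6) ended without any of 5 arrays.

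Gene lists were compared by their counts, with 1 probe per gene. Over all 18997 genes kept, 3.51% had a called interaction above 0 and 4.06% one below 0. In RPMI-8226 cells 9.1% rose and 6.05% fell, and in MM.1S cells 14.5% rose and 20.1% fell. The median interaction over all genes was 0.07. With other scalings of the arrays it lay between -0.02 and 0.04, and the medians of the 2 line changes moved together, from -0.08 and -0.09 to -0.44 and -0.35 with the array median as scale and to 0.05 and 0.10 with the percentile of the probes detected on all arrays. Falls of whole lists are therefore relative to this scale.

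Growth genes fell in more members in MM.1S cells. Of 60 ribosome biogenesis genes 56 fell in MM.1S and 3 in RPMI-8226 cells, with median log2 changes of -1.06 and -0.39. All 60 interactions were above 0 (58 to 60 under the other scalings), yet only that of RRP12, a ribosome assembly factor, was called (1.77 ± 0.28 (SE), adjusted p = 0.0196), and this call ended without any of 5 arrays. With quantile normalization 4 were called and with the normexp background correction 19. Of 58 genes of DNA replication and the G1/S transition 53 fell in MM.1S and 3 in RPMI-8226 cells, with medians of -0.96 and -0.33 and called interactions for E2F2 (1.47) and GINS3 (1.32). Of 48 mitotic genes 35 and 1 fell, with SPC25 called, and of 58 replication-dependent histones 45 and 1 fell, with 4 called. Of 48 genes of oxidative phosphorylation 32 and 5 fell, with 1 called, and of 25 glycolytic genes 15 and 4 fell, with 2 called. With normexp, 17 of the G1/S genes, 7 of the mitotic genes, 8 of the histones, 2 of the oxidative phosphorylation genes and 8 of the glycolytic genes had a called interaction. Over all genes normexp called 1276 above 0 and 1257 below 0, in place of 667 and 772. A larger number of falls in 1 line is not a test of the difference between the lines.

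The amino acid and cholesterol lists held more called interactions. Of 49 ATF4 and amino acid response genes, which take up and make amino acids under stress, 11 had a called interaction above 0 and 1 below 0 (24 and 2 with normexp). Median log2 changes were -0.5 in RPMI-8226 and -1.2 in MM.1S cells, and 13 and 38 genes fell. SLC6A9, a glycine transporter, went from 2.32 and 1.78 to 0.8 and 1.15 in RPMI-8226 cells (adjusted p = 0.0974) and from 3.07 and 3.61 to -0.53 and -1.44 in MM.1S cells, 20-fold lower (interaction 3.25 ± 0.52 (SE), adjusted p = 0.0191). This call, on 1 of its 2 probes, ended without any of 3 arrays. SLC7A11, which exchanges cystine for glutamate, fell in MM.1S cells only (log2 change -2.45 against -0.21, interaction 2.23), as did SLC7A1 and CEBPB. PSAT1, of serine synthesis, fell in both lines, by 1.2 in RPMI-8226 and by 3.1 in MM.1S cells on the log2 scale. NUPR1 was called in opposite directions (1.22 and -0.82) and STC2 as lower in RPMI-8226 cells only (-1.59 against 0.24), which was the call below 0, but MM.1S cells measured neither probe.

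Of 24 genes of cholesterol synthesis 18 fell in MM.1S and 0 in RPMI-8226 cells, with medians of -0.8 and -0.09, and 5 interactions were called, each above 0 (1 to 12 under the other scalings). SQLE, which oxidises squalene, read 3.8 and 3.62, and 3.63 and 3.28, in RPMI-8226 cells and fell from 1.11 and 0.7 to -1.37 and -1.79 in MM.1S cells, 5.61-fold (adjusted p = 0.0015, interaction 2.23). HMGCS1, DHCR7, NSDHL and EBP were the other 4, with interactions of 1.37, 0.95, 0.97 and 0.85. The call of SQLE had an adjusted p of 0.0519 without replicate 2 of the combination in MM.1S cells, and that of HMGCS1 ended without any of 6 arrays.

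**Figure D5:**
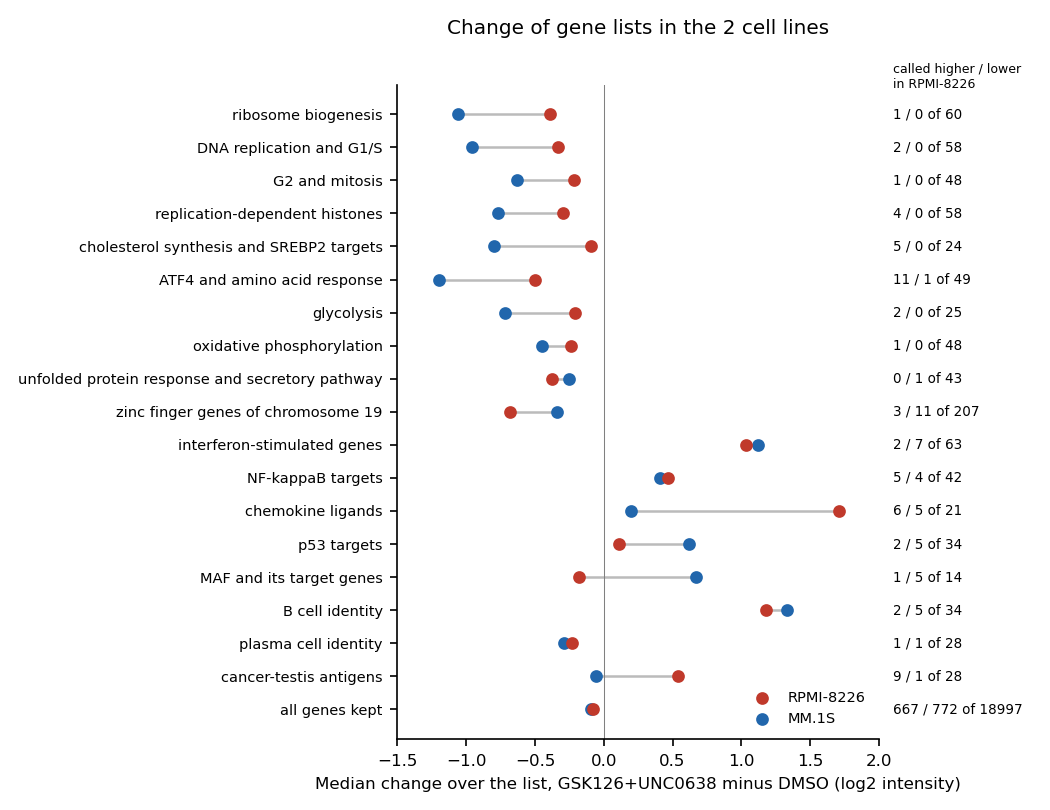
Median log2 change with GSK126+UNC0638 of each gene list in RPMI-8226 and MM.1S cells (horizontal, log2 intensity), with the lists on the vertical axis and the number of genes kept. Ribosome biogenesis lies at -0.39 and -1.06 and cholesterol synthesis at -0.09 and -0.8 in RPMI-8226 and MM.1S cells, while interferon-stimulated genes lie at 1.03 and 1.12.

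Among interferon-stimulated genes rises were called in both lines, for 30 of 63 in RPMI-8226 and 33 in MM.1S cells, with medians of 1.03 and 1.12. Called interactions above 0 numbered 2 (OAS1 and GBP1) and below 0 numbered 7 (6 and 10 with normexp). CMPK2, a mitochondrial nucleotide kinase next to RSAD2, was under background in RPMI-8226 cells (-6.66 and -6.41, and -6.49 and -6.38) and rose from -3.94 and -4.41 to -0.36 and -0.19 in MM.1S cells, 14.9-fold (interaction -3.8 ± 0.27 (SE), adjusted p = 0.00146). OAS1, which senses double-stranded RNA, rose by a log2 change of 2.62 in RPMI-8226 cells, against 0.44 in MM.1S cells. EPSTI1 rose in MM.1S cells only (1.66 against 0.09). The interaction was not called for IRF9 (0.06, adjusted p = 0.876), ISG15 (-0.33, adjusted p = 0.491), IFI6 (0.88, adjusted p = 0.197), IFIT1 (-1.73, adjusted p = 0.12) and OAS3 (2.36, adjusted p = 0.127), which does not show that these genes responded alike.

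The p53 target list held 2 called interactions above 0 and 5 below 0 among 34 genes (7 below 0 with the array median as scale and 12 with normexp), with median log2 changes of 0.11 in RPMI-8226 (-0.25 with the array median as scale) and 0.62 in MM.1S cells. In MM.1S cells 17 of the 34 rose, and in RPMI-8226 cells 8. ZMAT3, an RNA-binding protein, read -2.3 and -2.13, and -2.12 and -2.08, in RPMI-8226 cells and rose from -4.18 and -4.43 to -0.88 and -0.7 in MM.1S cells, 11.4-fold (adjusted p = 0.000186, interaction -3.4 ± 0.21 (SE)). FDXR and the death receptor gene TNFRSF10B also rose in MM.1S cells only (1.66 and 1.42). PERP, an adhesion protein of epithelia, and GDF15, a secreted stress hormone, rose in RPMI-8226 cells only, by log2 changes of 3.02 and 2.78. Beside them lay TNFRSF10D, a decoy receptor and neighbour of TNFRSF10B, which rose 5.27-fold in MM.1S cells.

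NF-kappaB targets split in both directions, with 5 interactions called above 0 and 4 below 0 among 42 (10 and 5 with normexp). IL6, TRAF1 and TNFAIP2 rose in MM.1S cells only, with interactions of -2.93, -2.14 and -2.44. ICAM1, an adhesion molecule for leukocytes, fell in RPMI-8226 cells (log2 change -0.79, adjusted p = 0.0237) and rose in MM.1S cells (1.05, adjusted p = 0.00565), whereas IER3 rose in the first (1.16) and fell in the second (-0.6). Of 38 chemokine ligands on the array 21 were kept, and 13 were measured in both lines, so the filter sets part of the counts. Of the 21 kept, 6 were called above 0 and 5 below 0 (10 and 5 with normexp). CXCL6 and CCL18 rose in RPMI-8226 cells only, CXCL13 and CCL25 in MM.1S cells only, and CCL2 rose in both, by 1.68 and 4.26. The call of CCL18 ended without any of 5 arrays. Of 35 immediate early genes 3 were called above 0 and 1 below 0 (5 and 2 with normexp), with a median interaction of 0. In RPMI-8226 cells 7 rose and 0 fell, and in MM.1S cells 8 rose and 6 fell. Among them JUN rose in RPMI-8226 cells (2.08, interaction 2.59) and KLF4 in MM.1S cells only (2.99, interaction -3.16).

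Genes of the germ line and of B cells held further rises in 1 line. Of 42 cancer-testis antigen genes on the array 28 were kept, and 13 were measured in both lines. A silent gene is kept only where some group had it well above background, so the filter sets part of these counts. Of the 28 genes 9 had a called interaction above 0 and 1 below 0 (16 and 1 with normexp), and 11 rose in RPMI-8226 and 2 in MM.1S cells. SSX1, SSX4B, XAGE3, PAGE1 and SPANXA1 rose in RPMI-8226 cells only and were not measured in MM.1S cells. SPANXA1 read 1.58 and -1.05 with the combination, and its call ended without any of 6 arrays and with no filter on dim probes. MAGEC3, the call below 0, rose in MM.1S cells only. Members of these X-linked families are near copies, so that single members are uncertain. Of 34 B cell genes 2 were called above 0 and 5 below 0 (5 and 8 with normexp). MS4A1, which encodes CD20, rose in both lines, with bounds of 16-fold for RPMI-8226 and 2.74-fold for MM.1S cells (interaction 2.53), while BANK1, CD37 and CXCR5 rose in MM.1S cells only. Of 28 plasma cell identity genes SLAMF7 was called above 0 and FCRL5, an Fc receptor-like protein, below 0 (4 and 3 genes with normexp). FCRL5 read -4.11 and -4.88, and -4.24 and -3.3, in RPMI-8226 cells and rose from -3.55 and -3.68 to 1.84 and 2.36 in MM.1S cells, 52.5-fold (interaction -4.99 ± 0.55 (SE), adjusted p = 0.00578), with all 5 of its probes called.

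The MAF list, the zinc finger genes and the drugs' own pathways were counted last. Of 14 genes named for the transcription factor MAF 5 had a called interaction below 0, among them CX3CR1, SPP1 and RND3. Of 207 zinc finger genes of chromosome 19, 83 fell in RPMI-8226 and 57 in MM.1S cells, with medians of -0.68 and -0.34, and 3 interactions were called above 0 and 11 below 0 (5 and 17 with normexp), beside 667 and 772 of all 18997 genes. ZNF441, ZNF556, ZNF44 and ZNF555 fell in RPMI-8226 cells only, ZNF181 and ZNF580 moved in opposite directions, as did ZNF331 on a probe that was not measured in MM.1S cells, and ZNF541 rose in RPMI-8226 cells only, at least 4.58-fold. Of 43 genes of the unfolded protein response ERN1 was called (-1.42), a call lost with arrays weighted by line or without any of 7 arrays. Under the other scalings 2 or 3 of these genes were called below 0, and with normexp 7 below 0 and 1 above 0. By limma 0 interactions were called among 32 enzymes of Polycomb repressive complex 2 and H3K9 methylation and 0 among 21 MHC class I genes, with 4 and 1 at an unadjusted p under 0.05 and 1 and 0 called with normexp.

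No interaction was called for the targets of the drugs or for 3 plasma cell factors. EZH2 had log2 changes of -0.3 in RPMI-8226 cells (adjusted p = 0.333) and -1.1 in MM.1S cells (adjusted p = 0.00916), with an interaction of 0.81 ± 0.28 (SE, adjusted p = 0.137). EHMT2 had -0.53 (adjusted p = 0.0838) and -0.32 (adjusted p = 0.183). IRF4, which myeloma cells depend on, had log2 levels of 2.89 and 2.52, and 0.85 and 1.16, in RPMI-8226 cells and of 4.21 and 4.14, and 3.05 and 2.93, in MM.1S cells. It fell 3.25-fold (adjusted p = 0.00265) and 2.27-fold (adjusted p = 0.00583), and its interaction was -0.52 ± 0.25 (SE, adjusted p = 0.259). PRDM1 had an interaction of 0.32 (adjusted p = 0.319), and KLF2 one of -0.02 ± 0.78 (SE, adjusted p = 0.99), where the wide error leaves most differences undetectable with 2 arrays per group.

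Each inhibitor alone was set beside the combination, with the same DMSO arrays as control and no test. The classes and genes below were chosen through calls on the combination arrays, which by itself favours larger changes with both inhibitors. Their values therefore cannot show whether the inhibitors act more than additively. For all 26389 probes kept, the medians with GSK126, UNC0638 and both were -0.04, -0.04 and -0.1 (RPMI-8226) and -0.05, -0.06 and -0.1 (MM.1S). The 343 probes higher in RPMI-8226 cells only had median log2 changes there of 0.93 with GSK126, 0.72 with UNC0638 and 3.07 with both. The 512 higher in MM.1S cells only had medians there of 0.79, 1.15 and 2.11 in the same order. The 49 probes higher in RPMI-8226 and lower in MM.1S cells had 0.66, 0.29 and 1.2 in the former and -0.28, -0.6 and -0.83 in the latter, and the 76 in the other direction -0.38, -0.38 and -1.05, and 0.47, 0.61 and 1.09. Single genes differed from these medians. AGR2 had 6.72 with GSK126 and 0.33 with UNC0638 in RPMI-8226 cells, while SLN had -0.12 and 0.27 and rose with both inhibitors. In MM.1S cells LAMB3 had 0.91 and 3.88, and CXCL13 5.4 and 2.3. The kappa segment 1-16 (ENST00000479981) had -1.37 and -0.3 in RPMI-8226 cells and 0.85 and 1.88 in MM.1S cells.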

How the data were processed

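RNA of 8 arrays (2 biological replicates of 4 groups) was analysed. Per the labels, the authors hybridized 100 ng of total RNA labelled with Cy3 to 1-colour Agilent human arrays and deposited processed signal intensity per spot from Feature Extraction 10.7, background-subtracted and with surrogate values for spots at background. A series table of intensities was also deposited by the authors and served, after taking log2, as an alternative. From these, log2 intensity minus the 75th percentile of the array was computed, spots flagged as outliers were dropped, spots of a probe were averaged, and a probe was kept where any group had it well above background on each of its arrays (26389 of 50599). limma 3.58.1 in R 4.3.3 was fitted to the 4 group means, with Benjamini-Hochberg adjustment over all probes kept, and was tested on simulated data. Genes carry RefSeq symbols through the accession (28174 probes) and 1 probe each in lists, that of the highest mean level. Probe positions are GRCh37 and promoters GRCh38.p14. Fold bounds compare the brighter group with the dimmest probe signal that still passed as well above background, array by array. The genes named lead each class by the size of the interaction, or of the smaller line change for opposite directions, and were joined by list members and neighbours. Members and lists were chosen with earlier results of these data known. Replicate numbers pair arrays within RPMI-8226 cells (deviations correlated at 0.201 to 0.342 in 6 of 6 pairs of groups), less so within MM.1S cells (0.0773 to 0.2, 5 of 6 over 0.1) and not across lines (-0.00731 to 0.0516). Weighting of arrays by line was chosen after seeing the data. Values of a few single genes of these lists are not reported here.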

Additional observations from a re-analysis of the deposited data

Results flagged for a closer look

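The following genes were called in opposite directions in the 2 lines, with the difference itself tested (limma interaction, adjusted p under 0.05). Higher in RPMI-8226 and lower in MM.1S cells were PLIN2, with an interaction of 3.92, DHRS2, with 3.56, SLC35F1, with 3.87, SPACA3, with 4.44, and BEND6, with 3.5. The reverse held for CTTN, with -4.88, ADAMTSL2, with -5.13, and the kappa segments 1-16 (ENST00000479981), with -4.4, 1D-43 (ENST00000468879), with -4.13, and 1D-8 (ENST00000471857), with -4.04. With arrays weighted by the spread of their line, only SLC35F1, SPACA3 and segment 1-16 among these kept both line changes. For the others the change in RPMI-8226 cells was then not called, so their opposite directions are less certain. The limits given above for single genes hold here too.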

How the results depend on the processing

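Called interactions numbered 1850 as reported, with 430 probes called in RPMI-8226 cells only, 658 in MM.1S cells only, 125 in opposite directions and 47 of the latter changed at least 2-fold in both lines. Scaling by the array median gave 265 in opposite directions and 80 at 2-fold, with 36.5% of interactions above 0 in place of 45.9%. The normexp correction gave 3195 interactions and 5 opposite at 2-fold, and 30 of the 1850 calls changed sign. No filter gave 1091, 54 opposite and 28 at 2-fold, and only probes well above background on all 8 arrays gave 1056, 108 in RPMI-8226 cells only, 349 in MM.1S cells only and 17 at 2-fold. An intensity-dependent prior variance gave 2923 (56.9% above 0), and 1 fit over all 16 arrays 3659, 1000 in MM.1S cells only and 198 opposite. At an adjusted p of 0.01 there were 519, 179, 194, 16 and 10. Arrays weighted by line gave 81 opposite and 17 at 2-fold. At a change of 1.5-fold 109 were opposite in both lines. Without single arrays the ranges were 736 to 2610, 212 to 610, 281 to 758, 44 to 197 and 21 to 60. Without any MM.1S array interactions were 736 to 874. Without RPMI-8226 DMSO replicate 1 there were 2610, with 197 opposite, and without RPMI-8226 GSK126+UNC0638 replicate 1 67 were opposite. Without RPMI-8226 DMSO replicate 2 and GSK126+UNC0638 replicate 2, 430 and 410 were called in MM.1S cells only. The replicate block gave 1576 interactions within each line (434, 551 and 144 in the classes) and 1651 across both (420, 591 and 128). The 125 opposite probes kept opposite signs of the lines in every setting that tested them. IRF9, which was not called, changed sign with median scaling (-0.04), with normexp (-0.01) and without RPMI-8226 DMSO replicate 1 (-0.11, range without single arrays -0.11 to 0.23), and KLF2 with normexp (0.58) and without single arrays (range -0.75 to 0.71, and above 0 at 0.02, 0.08, 0.6 and 0.71). The cause was not tested. With 2 arrays per group, and 30.6% to 36.6% of spots at background, changes of dim genes are bounds.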
